A study of Canis lupus familiaris with 6 samples.

Results

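MHC class I molecules display short peptides from the cell interior to T cells. The genes of that pathway were examined in oncogenic dog kidney cells, grown among their own kind or mixed with cells that lack the oncogene. The members were named by their roles, with earlier results of these data known. They were the class I chains B2M and DLA88, the peptide transporter TAP1 and TAP2, the loading protein TAPBP, the trimming enzyme ERAP1, the immunoproteasome subunits PSMB8, PSMB9 and PSMB10, and the transactivator NLRC5. Of the 10 genes, 9 were found by the gene name column of the array, with 17 probes among 43603 non-control probes. No probe carried NLRC5 in that column, but 1 probe was described there as NLR family, CARD domain containing 5. It is given separately and does not enter the counts over 17 probes.

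The cells were MDCK cells, a line derived from dog kidney epithelium. Both groups were 1 engineered line of them, termed β-cat ΔN/RasV12 cells. It carried mCherry-β-catenin Δ131 from an EF1 promoter, a stable β-catenin without its N-terminus that keeps Wnt signalling active, and GFP-RasV12 in the pTR system, a tetracycline-inducible, GFP-tagged and constantly active Ras. In the single culture (3 arrays) they grew alone. In the mix culture (3 arrays) each was seeded with 10 MDCK mCherry-β-catenin Δ131 cells, which lack RasV12. Both groups thus shared the β-catenin construct, the tetracycline for 24 h and the sorting of GFP-positive cells, and differed in the surrounding cells. The sources used here do not state the purity of the sorted cells or whether replicates came from separate cultures, so p-values measure only the spread between these arrays, which may be technical.

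In the class I pathway the proteasome cuts cytosolic proteins into peptides, and PSMB8, PSMB9 and PSMB10 can take the places of the constitutive catalytic subunits PSMB5, PSMB6 and PSMB7 to form the immunoproteasome. TAP1 and TAP2 pump the peptides into the endoplasmic reticulum, ERAP1 trims them there, and TAPBP (tapasin) bridges the transporter and the empty class I heavy chain, which is paired with β2-microglobulin (B2M). NLRC5 is a transactivator of class I genes, and interferon gamma is a classical inducer of the whole set. Epithelial cells carry class I at a steady level, whereas the immunoproteasome is best known from immune cells.

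Total RNA was hybridised to single-colour Agilent canine arrays. Replicate 1 of each group lay on slide 1, and the other 4 arrays lay on slide 2, which was scanned at another resolution, so each slide held both groups. The share of spots well above background was 61.1% to 65.7% on an array. Levels are given as normalised log2 signal, which is the log2 of the spot signal minus the 75th percentile of the array. A probe was called at an adjusted p under 0.05 (limma, Benjamini-Hochberg over all 26623 tested probes). Of these, 0.871% were called, 0.804% as higher in the mix culture. With the slide as a block in the same model, 7.22% were called and 4% were higher.

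All 17 member probes were well above background on all 6 arrays, and 16 of 17 were fitted higher in the mix culture. The same 16 were higher on both slides, against 28.4% of all tested probes. For 12 of the 17 (70.6%) every mix culture array lay above every single culture array, against 7.84% of all probes. These shares describe the members and are no test, since the members were chosen with earlier results known. Some of the 17 probes share bases or a transcript, so they are not independent measurements. The median log2 fold change of the members was 0.72, with a range from -0.06 to 2.39, while that of all tested probes was -0.05. Of the 17, limma called 3, all higher, in 2 genes, PSMB8 and PSMB9. With the slide as a block it called 15 as higher, with at least 1 probe in each of the 9 genes. With the replicate number as a block it also called 15 as higher, where 5.3% of all probes were called and 3.25% were higher. As RNA was measured in bulk, a different share of cells of a type and a different amount of RNA per cell cannot be told apart.

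**Figure D1:**
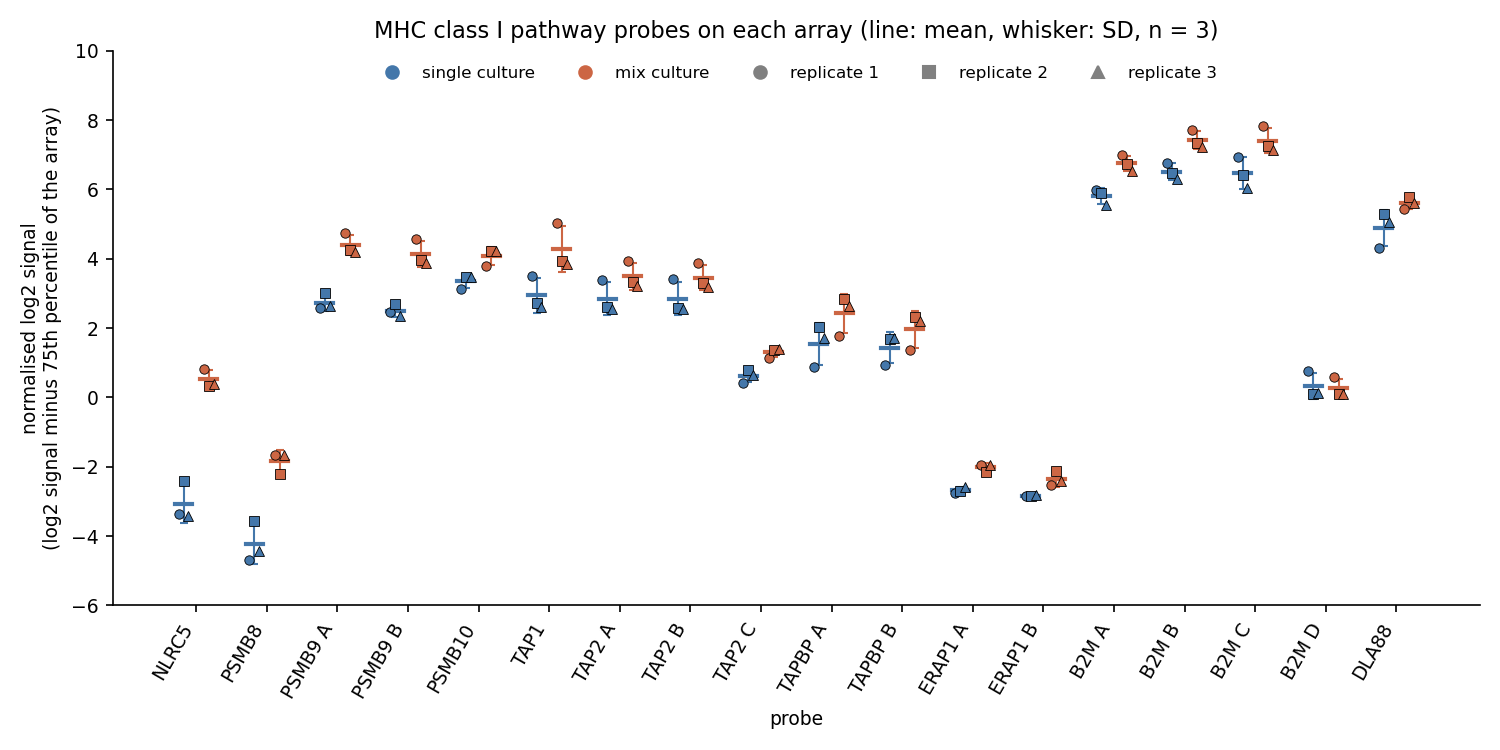
Normalised log2 signal (vertical axis) of the NLRC5 probe and the 17 member probes (horizontal axis) on each of the 6 arrays, with single culture in blue, mix culture in orange, a line at the mean and whiskers for the SD (n = 3). The groups were separate for NLRC5, PSMB8, PSMB9, PSMB10, TAP1, ERAP1, DLA88, probe C of TAP2 and probes A, B and C of B2M.

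The NLRC5 probe changed more than any member probe. It lies at chr2:59279828-59279887 on the minus strand of CanFam3.1, the build of all positions here, and is shown because the name rests on its description alone.
NLRC5: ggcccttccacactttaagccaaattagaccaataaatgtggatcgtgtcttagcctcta

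Its spot signal was 20.1, 31.2 and 16.1 intensity units on the single culture arrays 1, 2 and 3, and 413, 228 and 211 on the mix culture arrays. The lowest mix culture array was thus far above the highest single culture array. The normalised log2 signal was -3.07 ± 0.56 (SD, n = 3) in the single culture and 0.52 ± 0.27 (SD, n = 3) in the mix culture. This was a log2 fold change of 3.58 (SE 0.30), or 12-fold, with an adjusted p of 0.00342 by limma. It was 4.18 on slide 1 and 3.28 on slide 2. Leaving out any 1 array kept the call, with a highest adjusted p of 0.0255. The single culture signals lay below the offset of 50 that another background correction (normexp) adds, under which the change was 4.26-fold with an adjusted p of 0.00535.

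Other factors known to act on class I promoters changed less. Of 14 tested genes of class I transcription, none was called without a block (1 at an unadjusted p under 0.05, limma). With the slide as a block 1 was called, as higher (3 unadjusted). This is near the share of all tested probes, of which 7.22% were called with that block and 4% were higher. The called gene was STAT2, a component of the interferon-activated ISGF3 complex, named after its value was seen. It had a log2 fold change of 0.66 (SE 0.20, adjusted p 0.323 without and 0.00696 with the slide block, limma). IRF1, an interferon-induced activator, had a log2 fold change of 0.18 (adjusted p 0.338 with the slide block). RFX5, the DNA-binding subunit through which NLRC5 reaches class I promoters, had 0.27 (adjusted p 0.163 with the slide block). Of 4 tested genes of the interferon gamma receptor and its signalling, none was called with or without the slide block (1 and 0 at an unadjusted p under 0.05, limma), and their median log2 fold change was -0.11.

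Of the members, PSMB8 and PSMB9 had the largest fitted changes, and PSMB10 lay near the median of the members. PSMB8 (also called LMP7), the chymotrypsin-like subunit of the immunoproteasome, was measured by 1 probe at chr12:2419692-2419751 on the minus strand. It is shown with the PSMB9 probes because these 3 were the probes called without a block.
PSMB8: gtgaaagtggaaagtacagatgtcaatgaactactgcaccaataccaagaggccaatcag

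The PSMB8 signal was 7.91, 14 and 8.06 intensity units on the single culture arrays and 74.3, 38.9 and 50.7 on the mix culture arrays. The probe was dim but separate, with the lowest mix culture array above the highest single culture array. The normalised log2 signal was -4.23 ± 0.59 (SD, n = 3) and -1.84 ± 0.32 (SD, n = 3). PSMB8 had a log2 fold change of 2.39 (SE 0.32), or 5.23-fold, with an adjusted p of 0.0214 by limma, and 0.00272 with the slide as a block. It was 3.05 on slide 1 and 2.05 on slide 2. The call was lost without single culture replicate 3 (adjusted p 0.130) and without mix culture replicate 1, 2 or 3 (0.0576, 0.0644 and 0.118). Under normexp, whose offset of 50 exceeds every single culture signal, the fold was 1.59 and the adjusted p 0.186.

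PSMB9 (LMP2), the caspase-like position of the immunoproteasome, had a pair of probes at chr12:2437889-2437948 (A) and chr12:2437901-2437960 (B), both on the plus strand. They share 48 bases, here in capitals, and are therefore not independent measurements.
PSMB9 A: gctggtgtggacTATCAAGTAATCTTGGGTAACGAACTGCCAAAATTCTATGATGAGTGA
PSMB9 B: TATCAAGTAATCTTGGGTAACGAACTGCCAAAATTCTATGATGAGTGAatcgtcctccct

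Probe A had signals of 1221, 1336 and 1067 in the single culture and 6209, 3479 and 2971 in the mix culture. Probe B had 1126, 1074 and 884 against 5495, 2844 and 2353. For both probes the mix culture arrays were all higher, and replicate 1, on slide 1, was the highest of them. By limma the log2 fold change was 1.67 (SE 0.21, 3.18-fold, adjusted p 0.0163) for A and 1.64 (SE 0.22, 3.11-fold, adjusted p 0.0223) for B. With the slide as a block the adjusted p was 0.00154 and 0.00136. Both calls were lost without single culture replicate 3 (adjusted p 0.117 and 0.147) and without mix culture replicate 2 (0.0754 and 0.0946) or 3 (0.0685 and 0.0689). That of B was also lost without single culture replicate 1 or 2 (0.0592 and 0.0731).

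PSMB10 (MECL1), the trypsin-like position, had 1 probe that spans chr5:81563277-81563457 on the plus strand, 181 bases of genome for 60 bases of probe. Its signal was 1803, 1863 and 1928 in the single culture and 3204, 3386 and 3005 in the mix culture. The groups were narrow and separate. The log2 fold change was 0.71 (SE 0.20, 1.64-fold), which was not called without a block (adjusted p 0.266, limma), and was called with the slide (0.00528) or the replicate number (0.0136) as a block. This rise was thus smaller than those of PSMB8 and PSMB9, a difference that was not tested.

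To ask whether the inducible subunits moved apart from the constitutive ones they replace, the log2 signals of each pair were subtracted within each array, which makes the change independent of how arrays are scaled. The difference PSMB8 minus PSMB5 was higher in the mix culture by 2.55 on the log2 scale (5.84-fold), PSMB9 minus PSMB6 by 1.79 (3.45-fold), and PSMB10 minus PSMB7 by 0.85 (1.80-fold). In each of the 3 pairs all mix culture arrays were above all single culture arrays. The two-sided exact permutation p was 0.1 in each pair, the smallest that 3 arrays against 3 allow, and 0.1 after Benjamini-Hochberg adjustment over the 3 pairs. The change of the difference was 3.41, 2.49 and 0.68 on slide 1 and 2.12, 1.44 and 0.93 on slide 2. PSMB5, PSMB6 and PSMB7 themselves had log2 fold changes of -0.16, -0.12 and -0.14, with SEs of 0.19, 0.16 and 0.17 and adjusted p-values of 0.930, 0.945 and 0.936 by limma. Under normexp the shift of PSMB8 minus PSMB5 was 0.84.

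**Figure D2:**
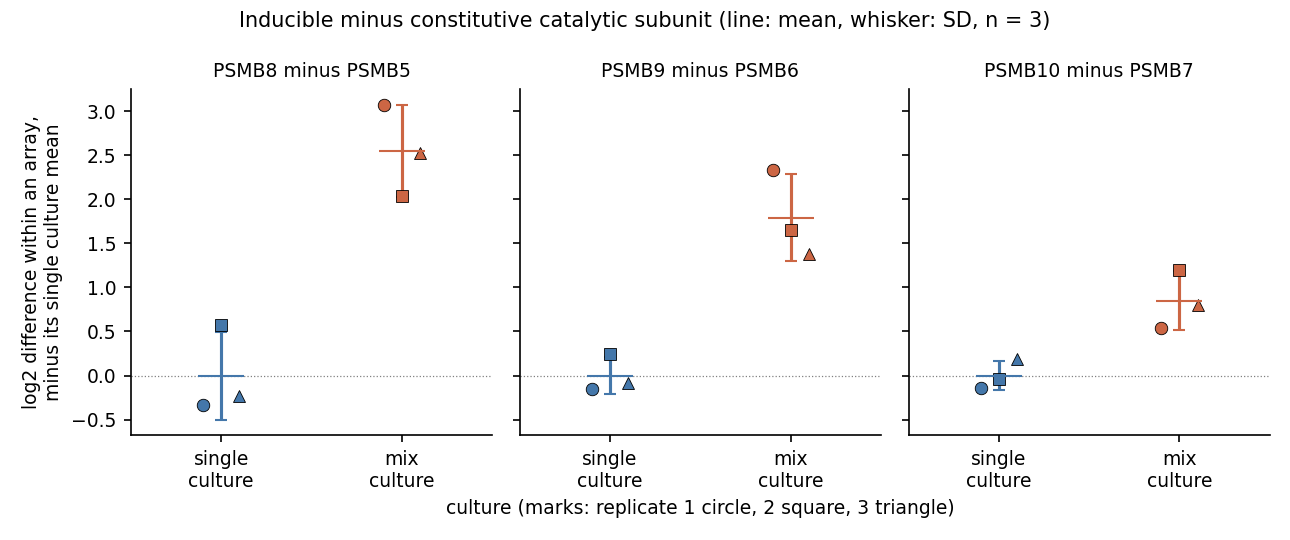
Log2 difference between the inducible and the constitutive catalytic subunit on each array (vertical axis, set to 0 at the single culture mean, since signals of different probes have no common scale), by culture (horizontal axis), with the mean and SD (n = 3). The mix culture arrays were above the single culture arrays in each pair, by a mean of 2.55, 1.79 and 0.85.

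The constitutive parts of the proteasome were not called. Of 12 tested genes of the constitutive 20S core, 11 were fitted lower and none was called with or without the slide block, nor had any an unadjusted p under 0.05 (0 of 12, limma), with a median log2 fold change of -0.11. Of 8 tested genes of the immunoproteasome and its activator, 2 were called as higher without and 4 with the slide block. Of all tested probes, 0.804% and 4% were called as higher in these models. The genes called only with the slide block were PSMB10 and PSME2, a subunit of the 11S activator PA28, which was named after its value was seen. PSME2 had a log2 fold change of 0.48 (SE 0.27, adjusted p 0.753 without and 0.0313 with the slide block, 0.0623 with the replicate block, limma).

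TAP1, which pairs with TAP2 to form the peptide transporter, was higher in the mix culture on both slides but differed widely between them. Its probe at chr12:2424120-2424179 on the minus strand is shown as an example of the member probes whose call changed with the slide block.
TAP1: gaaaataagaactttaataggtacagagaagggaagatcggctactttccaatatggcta

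The normalised log2 signal of TAP1 was 3.51, 2.71 and 2.60 on the single culture arrays and 5.04, 3.93 and 3.85 on the mix culture arrays. Replicate 1 was the highest array of either group, and the groups were separate. TAP1 had a log2 fold change of 1.33 (SE 0.38, 2.51-fold), which was not called without a block (adjusted p 0.300, limma). With the slide as a block the SE was 0.11 and the adjusted p 0.000482, and with the replicate number as a block the adjusted p was 0.00137. The change was 1.52 on slide 1 and 1.23 on slide 2, and slide 2 lay 1.00 below slide 1 on the log2 scale with the culture in the model. Without mix culture replicate 1 the fitted change was 0.94.

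TAP2, the partner of TAP1, was measured by 3 probes, of which A and B share 59 of 60 bases. Probe C, at chr12:2408302-2408361, had signals of 274, 287 and 271 in the single culture and 517, 467 and 428 in the mix culture. Its groups were separate, and those of A and B overlapped, with replicate 1 high in both groups. A, B and C had log2 fold changes of 0.64, 0.61 and 0.69. None was called without a block (adjusted p 0.638, 0.668 and 0.190, limma), and all 3 were with the slide as a block (0.00996, 0.0137 and 0.00671) and with the replicate block (0.0230, 0.0301 and 0.0165).

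TAPBP, which holds the empty class I molecule at the transporter, had probe A, printed 5 times on each array, and probe B. The normalised log2 signal of A was 0.88, 2.03 and 1.71 in the single culture and 1.78, 2.84 and 2.65 in the mix culture. Here replicate 1 was the lowest of either group, opposite to TAP1, and the groups overlapped. The log2 fold change of A was 0.88 (SE 0.38), 0.90 on slide 1 and 0.87 on slide 2, and that of B was 0.53 (SE 0.33). Both were called only with a block (adjusted p 0.588 and 0.777 without, 0.00564 and 0.0232 with the slide, 0.00606 and 0.0473 with the replicate number, limma).

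Of 10 tested genes of peptide transport and loading, none was called without a block (2 at an unadjusted p under 0.05, limma). With the slide block 4 were called as higher, against 4% of all tested probes. They were TAP1, TAP2, TAPBP and the tapasin-related TAPBPL, which was named after its value was seen. TAPBPL had a log2 fold change of 0.43 (SE 0.18, adjusted p 0.564 without the block, 0.0426 with the slide block and 0.0799 with the replicate block, limma). CALR, CANX and PDIA3, which fold many glycoproteins besides class I, had log2 fold changes of 0.04, -0.16 and -0.22, with adjusted p-values of 0.873, 0.427 and 0.387 with the slide block.

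ERAP1, the aminopeptidase that shortens peptides in the endoplasmic reticulum, had a pair of dim probes far apart on chromosome 3. Probe A had signals of 30.4, 25.8 and 28.8 in the single culture and 60.9, 40.7 and 42.0 in the mix culture, and probe B had 28.7, 23.4 and 24.4 against 40.2, 41.9 and 30.3. Both were separate after normalisation. The log2 fold change of A was 0.67 (SE 0.15), called with the slide block (adjusted p 0.0134) and not without (0.149). That of B was 0.48 (SE 0.17), called neither without (0.435) nor with the slide block (0.0568), nor with the replicate block (0.0849, limma). Under normexp the fold was 1.19 for A and 1.09 for B, with adjusted p-values of 0.75 and 0.997. Of 8 tested genes of peptide trimming ERAP1 alone was called, with the slide block (2 at an unadjusted p under 0.05), and the median log2 fold change was -0.08. With that block 7.22% of all tested probes were called.

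B2M, the light chain shared by all class I molecules, gave bright spots on all arrays. Probe B, at chr30:11337723-11337782, had signals of 22405, 14730 and 13483 in the single culture and 49344, 29403 and 24294 in the mix culture. After normalisation every mix culture array was above every single culture array for probes A, B and C, which all lie on chromosome 30. Their log2 fold changes were 0.95, 0.93 and 0.93, with SEs of 0.19, 0.20 and 0.29. None was called without a block (adjusted p 0.103, 0.140 and 0.341), and all were with the slide block (0.00451, 0.00226 and 0.00524) and the replicate block (0.00457, 0.00462 and 0.00610, limma).

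The fourth probe with the name B2M, D, was designed from an expressed sequence tag and lies on another chromosome, at chr2:19265122-19265181. It is shown beside probe B since it is the member probe that was not fitted higher.
B2M B: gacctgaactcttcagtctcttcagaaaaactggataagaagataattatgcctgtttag
B2M D: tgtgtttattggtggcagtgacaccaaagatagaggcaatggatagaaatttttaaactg

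Probe D had signals of 347, 180 and 188 in the single culture and 349, 195 and 174 in the mix culture. The groups overlapped almost fully. Its log2 fold change was -0.06 (SE 0.24, adjusted p 0.981, limma), and 0.713 was the adjusted p with the slide block. Whether its transcript is that of B2M was not tested.

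DLA88, a classical class I heavy chain of the dog, had 1 probe that spans chr12:985787-986279 on the plus strand, 493 bases of genome. Its first 9 bases, in capitals, are also the last 9 of a probe named DLA-64, so the names assign adjoining stretches of 1 place to different class I genes.
DLA88: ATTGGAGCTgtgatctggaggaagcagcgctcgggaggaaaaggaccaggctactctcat
DLA-64: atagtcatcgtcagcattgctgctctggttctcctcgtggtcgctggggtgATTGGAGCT

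Class I loci are near-identical in places, and their signals cannot be assigned to 1 locus by these names. The DLA88 signal was 4082, 6557 and 5808 in the single culture and 10080, 10034 and 7932 in the mix culture. The lowest mix culture array was above the highest single culture array, by 0.14 on the log2 scale after normalisation. The log2 fold change was 0.72 (SE 0.27, 1.65-fold), 1.12 on slide 1 and 0.52 on slide 2. It was not called without a block (adjusted p 0.504) and was called with the slide (0.0288) or replicate block (0.0414, limma).

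The 3 probes named DLA-64 had log2 fold changes of 0.57, 0.68 and 0.53. None was called without a block (adjusted p 0.609, 0.488 and 0.341), and each was with the slide block (0.0237, 0.0359 and 0.0313, limma). The 3 named DLA-12, another class I gene, had 0.40, 0.56 and 0.36. Their adjusted p-values were 0.495, 0.813 and 0.594 without a block and 0.0606, 0.0485 and 0.119 with the slide block (limma). Of 4 tested genes of the class I chains, all were fitted higher, with a median of 0.63. None was called without a block (4 at an unadjusted p under 0.05, limma), and 3 were with the slide block. Of all tested probes 7.22% were called with that block and 4% were higher. Of 3 tested class I-like genes none was called with or without it (1 and 0 at an unadjusted p under 0.05, limma), and the median was 0.23.

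**Figure D3:**
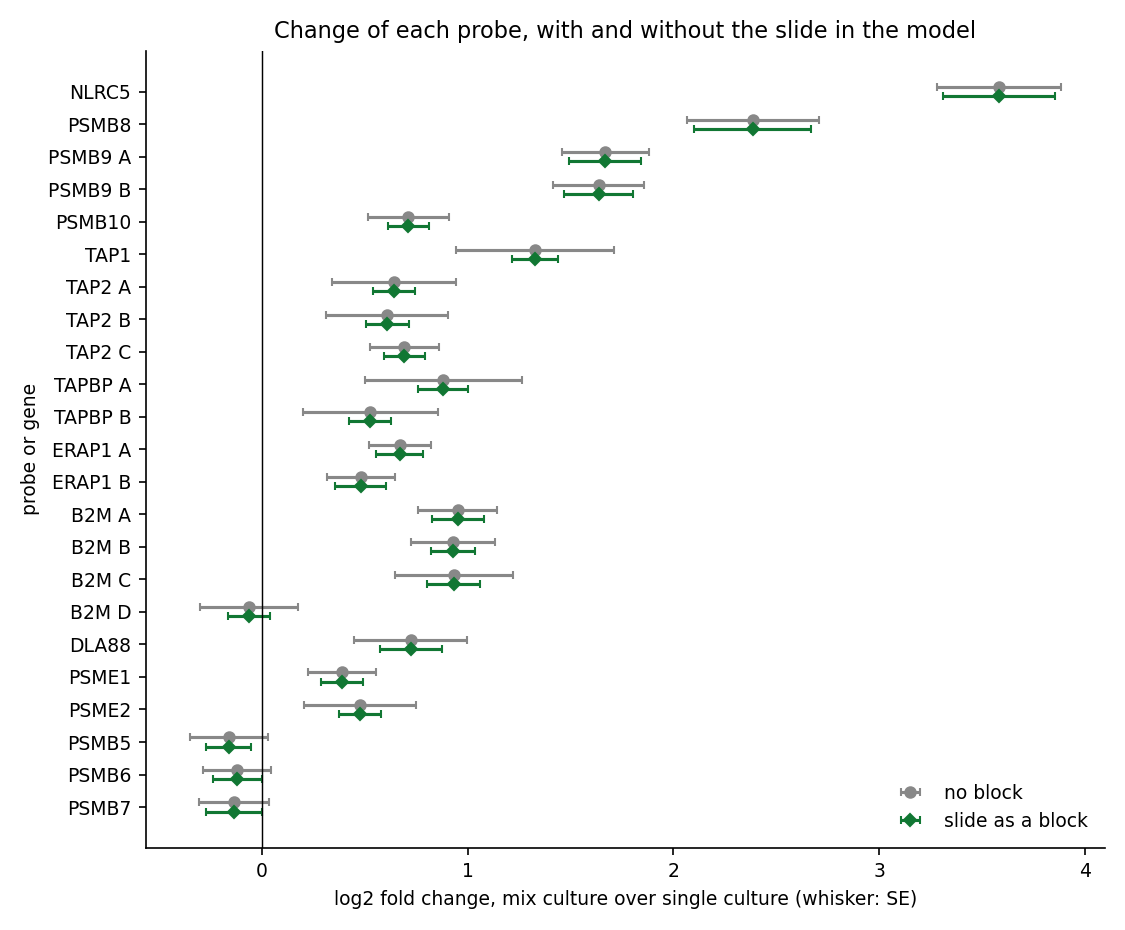
Log2 fold change of mix over single culture (horizontal axis) for each probe and for 5 other proteasome genes (vertical axis), with the SE without a block in grey and with the slide as a block in green. The estimate is the same in both models, and the SE of TAP1 fell from 0.38 to 0.11 with the slide in the model, whereas that of NLRC5 was 0.30 and 0.27.

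The difference between the models lay in the error and not in the size of the change, as the plot of each probe with both SEs shows. With the culture in the model, slide 2 was higher for TAPBP A by 0.98 on the log2 scale (adjusted p 0.000872, limma). For TAP1 it was lower by 1.00 (adjusted p 0.000554, limma). On both slides 16 of the 17 member probes were above 0 and B2M D was below it (-0.17 on slide 1, -0.0082 on slide 2). The median of the 17 was 0.87 (slide 1) and 0.74 (slide 2), and that of all tested probes was -0.06 and -0.04. Whether the size of the change differed between slides was not tested.

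**Figure D4:**
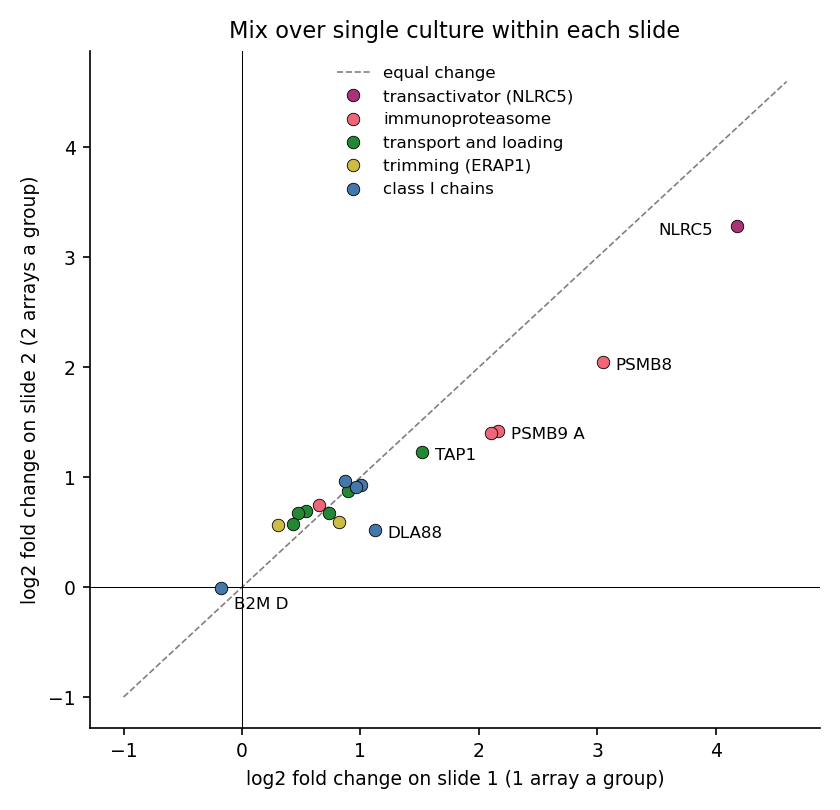
Log2 fold change on slide 1 (1 array a group, horizontal axis) against that on slide 2 (2 arrays a group, vertical axis) for the NLRC5 probe and the 17 member probes, coloured by role, with a dashed line of equal change. All lie above 0 on both axes except B2M D, and NLRC5 (4.18 and 3.28), PSMB8 (3.05 and 2.05) and PSMB9 A (2.17 and 1.42) fall below the line.

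Of the 9 genes with a named probe, 6 lie on chromosome 12, the chromosome of the dog MHC. By RefSeq's annotation of the assembly UU_Cfam_GSD_1.0, TAP2, PSMB8, TAP1 and PSMB9 follow each other with no protein-coding gene between them, next to the class II gene DLA-DOB on one side and DLA-DMB on the other. On the array, 66 tested probes lay within 500 kb of the TAP1 probe. Of these, 11 were called without and 24 with the slide block (36.4%), all higher. On the rest of chromosome 12, 51 of 745 were called with the slide block (6.85%), of which 32 were higher. The window was centred on a member probe and holds other members, which were chosen with earlier results known. Some of its class II probes were well above background, and so tested, through the mix culture alone. Its share therefore cannot be compared with that of the rest of the chromosome. The 24 were made up of 9 member probes, 10 of the 13 probes of the class II list and 5 of the 44 others, whose median log2 fold change was 0.0043. These 5, named after their values were seen, included TC51754, at -286.4 kb from the TAP1 probe and beside a DLA-DRA probe at -287.5 kb. The rest of the 5 were probes of COL11A2 and PHF1. Among probes well above background on all 6 arrays, 17 of 55 in this window were called with the slide block, with 9 member probes, 4 of 4 class II probes and 4 of 42 others. The matching count for the rest of the chromosome was not made.

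**Figure D5:**
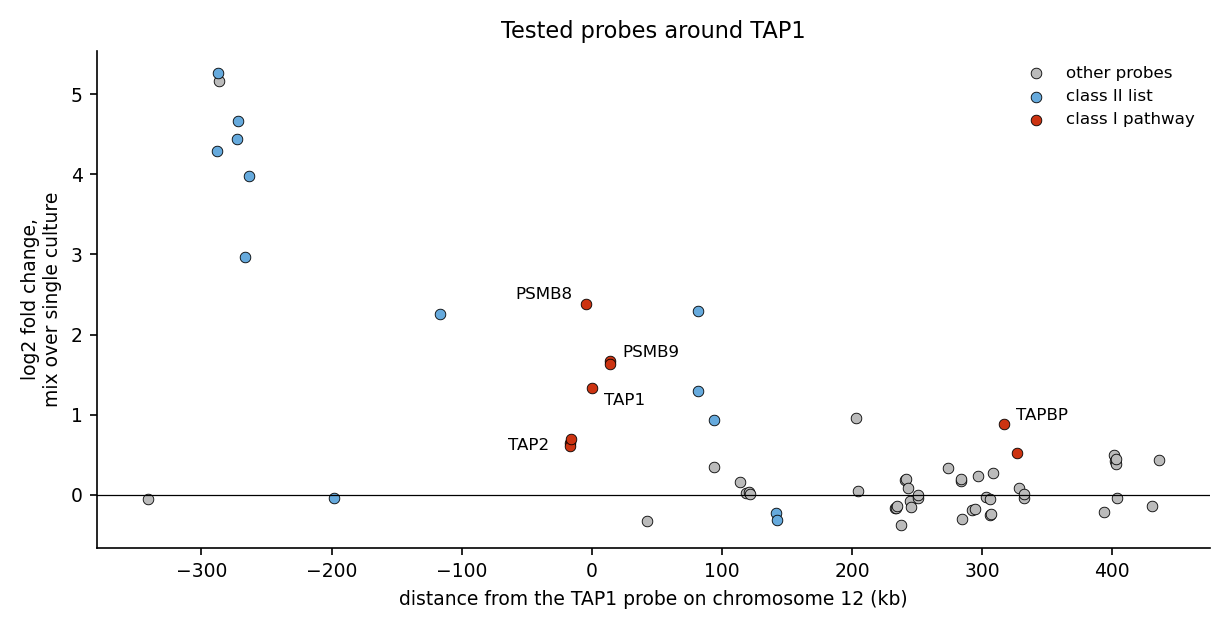
Log2 fold change of mix over single culture (vertical axis) of the 66 tested probes within 500 kb of the TAP1 probe, by distance from it in kb (horizontal axis). The class I pathway (red) and most of the class II list (blue) lie above 0, and the 44 other probes (grey) centre near 0.

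The class II genes neighbour the class I pathway on chromosome 12, and several of their probes passed the filter on dim probes through the mix culture alone. Of the 9 tested genes of the class II list, 5 were well above background on all 6 arrays. Of these 5, 2 were called as higher without a block and all 5 with the slide block (limma). Of all tested probes, 0.804% were called as higher without a block and 4% with the slide block. DLA-DQA1 and DLA-DOA, named after their values were seen, were each well above background on 5 arrays and did not rise. Their log2 fold changes were -0.04 and -0.23, and neither was called with the slide block (adjusted p 0.883 and 0.519, limma). CIITA, the class II transactivator and a relative of NLRC5, had a pair of tested probes that differed in size. The brighter gave a log2 fold change of 2.35 (SE 0.25, 5.08-fold, adjusted p 0.00903), and this call was lost without mix culture replicate 2 or 3 (adjusted p 0.0604 and 0.0622) or single culture replicate 3 (0.0619). The other gave 0.87 (SE 0.20, 1.83-fold), not called without a block (adjusted p 0.160) and called with the slide block (0.00722). HLA-DRB1, a class II chain, had a log2 fold change of 4.44 (SE 0.30, adjusted p 0.00141, limma). DLA-DRA and DLA-DMB were well above background on the 3 mix culture arrays alone, so no fold is given. Over all 10 lists, 67 tested genes were well above background on all 6 arrays, of which 4 were called without and 18 with the slide block, all higher.

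Markers of other cells were read beside these changes, since leukocytes express the immunoproteasome and class II. The 7 kidney epithelium markers on the array, such as CDH1, EPCAM and CDH16, were well above background on all 6 arrays. Their summed level, in multiples of the 75th percentile of the array, was 404 to 498 in the single culture and 318 to 407 in the mix culture. These ranges met only at 404 to 407, with the mix culture lower. None was called without a block and 1 with the slide block (1 and 3 of 7 at an unadjusted p under 0.05, limma). Of 15 leukocyte markers, 5 were well above background on all arrays, and PTPRC, CD3D, CD2, MS4A1, AIF1 and LYZ were on none. The summed level of all 15 was 1.71 to 2.12 in the single culture and 1.62 to 1.89 in the mix culture, and none was called with or without the slide block (0 of 7 tested at an unadjusted p under 0.05 in either model, limma). The summed levels of fibroblast markers (0.793 to 1.81 and 0.677 to 1.46) and endothelial markers (5.50 to 14 and 4.66 to 14.4) overlapped too, with none of 3 and 3 tested called in either model (2 fibroblast markers at an unadjusted p under 0.05 with the slide block).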

How the data were processed

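Single-colour arrays of 3 single and 3 mix cultures were used. The authors deposited the intensity of each spot, which Agilent Feature Extraction (11.5.1.1 on slide 1, 12.1.1.1 on slide 2, per the file headers) had corrected for background within the array. A deposited table of log2 values came with it, whose steps are not given in the sources used here. Its columns centre on each slide, and those of mix culture replicates 2 and 3 matched each other's scanner file (r = 0.998 and 0.992), so it served as an alternative only.

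Outlier-flagged spots (5 to 9 an array) were dropped, spots of a probe averaged, and the 75th percentile of the array subtracted from log2 signals. Controls were excluded, and none of the spots was saturated. Probes were tested if all arrays of 1 or both groups had them well above background. The test was limma 3.58.1 under R 4.3.3 (two-sided, all 6 arrays, no covariate), and the code was tested on simulated data. The number of arrays limits the precision. Same-numbered arrays deviated together (r = 0.801, 0.530 and 0.572 for the pairs of the titles), and the replicate block takes the number to pair them. Differently numbered arrays of slide 2 did so more strongly (0.610 and 0.632). The values thus do not show a pairing by number apart from the slide, and the replicate block rests on the titles.

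The members and lists were chosen with earlier results of these data known. Every member was named. From the other lists PSMB5, PSMB6, PSMB7, IRF1, RFX5, CIITA and at most the 4 called genes with the largest change were named, others only as stated. One gene that this rule names is not reported here. A list counts 1 probe a symbol, the brightest. Symbols and positions are those of the array design on CanFam3.1. All 10 member symbols were in the RefSeq table, which held the accessions of 8 member probes, each under the same symbol. Alternatives were a slide or replicate block, slide 2 alone, leaving out each array, other filters on dim probes, quantile scaling, normexp with an offset of 50 on median spot signals, the deposited table, the methods' t-test and averaging a gene's probes.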

Additional observations from a re-analysis of the deposited data

How the results depend on the processing

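The direction of 16 of the 17 member probes was the same under every alternative run. B2M D, near 0, ranged from -0.22 to 0.148 with 1 array left out, and turned to 0.0142 without mix culture replicate 2, 0.0151 without mix culture replicate 3 and 0.148 without single culture replicate 1, on the log2 scale. The number of member probes called (3) was 15 with the slide block, 15 with the replicate block, 12 on slide 2 alone, 16 in the deposited table and 0 by the methods' t-test, where 9 had an unadjusted p under 0.05 and the lowest adjusted p was 0.171. It was 0 to 2 with 1 array left out, and 0 without single culture replicate 3, mix culture replicate 2 or mix culture replicate 3, where 11, 10 and 11 had an unadjusted p under 0.05. The number of all probes called (232) was 1922 with the slide block, 1411 with the replicate block, 997 on slide 2 alone, 4077 in the deposited table, 142 among probes above background on all arrays, 100 under normexp, 8 by the t-test and 91 to 247 with 1 array left out. The number of genes of the 10 lists called (5) was 20, 18, 15 and 22 in the first 4 of these, 2 under normexp, 0 by the t-test and 2 to 7 with 1 array left out. The deposited table, whose columns centre on each slide, was fitted without a block. This can understate the error, so its counts may be too high. With mix culture replicates 2 and 3 exchanged in the replicate block, an alternative chosen after seeing the data, 14 member probes, 1458 probes and 16 list genes were called. Of the 288 values of 18 single probes (the members and NLRC5) under alternatives, 58 passed the threshold only under the alternative, 57 of them with a block, on slide 2 alone or in the table, and 17 no longer passed it. The cause was not tested. The 3 subunit differences stayed above 0 under each alternative run. Dim probes (PSMB8, NLRC5, ERAP1) had smaller folds under normexp, whose offset exceeds their single culture signals.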
